A study of Homo sapiens with 9 samples.

Results

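The 10 genes described are transcriptional targets of YAP and its TEAD partner proteins: CCN1 (also CYR61), CCN2 (also CTGF), ANKRD1, AMOTL1, AMOTL2, AJUBA, LATS2, AXL, F3 and CRIM1. The rule that names them uses known targets and no measured value, but the list was chosen with earlier results of these data known. All 10 were found by gene identifier among the 58395 genes of each table. The libraries came from HCT116, an established human colon carcinoma line, in which STBD1 was knocked down with a short hairpin (shSTBD1) in every group, the control included. Onto this background the cells received plvx neo, the vector without insert, or a vector with STBD1 WT or with STBD1 W203C, a form in which a tryptophan of the motif that binds autophagy proteins is a cysteine. STBD1 binds glycogen and is studied as an adaptor for its autophagy. Each group had 3 replicates that the submitters call biological, lentivirus and drug selection were used to make the cells, and cells without the hairpin were not analysed here. Whether the replicates of a group came from separate infections was not stated. The tests measure spread between these replicates, so a difference between the selected cell lines cannot be told apart from an effect of STBD1. Table names and sample labels disagree on which libraries carry which STBD1 form. Groups follow the labels here. If the labels are crossed, each direction between the 2 forms turns around and their comparisons with plvx neo trade places.

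YAP and its relative TAZ (gene WWTR1) are coactivators without a DNA-binding domain of their own, and they reach their targets through TEAD1 to TEAD4. The Hippo kinases LATS1 and LATS2 phosphorylate YAP and TAZ and keep them out of the nucleus in dense, soft or rounded cells, so that target gene expression is widely used as a readout of cell density and tension. Several targets feed back on the pathway: LATS2 and the angiomotins AMOTL1 and AMOTL2 restrain YAP, whereas AJUBA inhibits LATS.

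Libraries held 16.9 to 23.3 M expected counts. The summed TPM (transcripts per 1 M, a level corrected for transcript length and depth) of STBD1 and the overlapping readthrough gene FAM47E-STBD1 was 4.12 to 5.62 in plvx neo, 52.3 to 57.0 with the STBD1 WT label and 43.5 to 47.9 with the STBD1 W203C label (two-sided exact permutation test, p = 0.1 for each pair of groups, the smallest that 3 against 3 allows). All 6 epithelial markers examined were at or above 1 TPM in every library, no endothelial or leukocyte marker was, and of the fibroblast markers COL1A1 alone was.

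Promoter sequences are shown for the 3 genes whose windows held more than one copy of the letters bound by TEAD proteins (GGAATG) or by AP-1 (TGANTCA), both searched on both strands. AP-1 is the Fos and Jun dimer that occupies many YAP/TEAD-bound elements. The sequences are the 250 bases before the RefSeq start in GRCh38.p14, all on the minus strand, with matches in capitals.
CCN2, chr6:131951373-131951622: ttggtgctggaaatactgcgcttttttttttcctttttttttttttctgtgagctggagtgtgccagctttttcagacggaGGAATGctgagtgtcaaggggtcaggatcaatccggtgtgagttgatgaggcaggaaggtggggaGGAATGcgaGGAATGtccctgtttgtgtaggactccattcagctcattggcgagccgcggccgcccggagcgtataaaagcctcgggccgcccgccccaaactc
ANKRD1, chr10:90921088-90921337: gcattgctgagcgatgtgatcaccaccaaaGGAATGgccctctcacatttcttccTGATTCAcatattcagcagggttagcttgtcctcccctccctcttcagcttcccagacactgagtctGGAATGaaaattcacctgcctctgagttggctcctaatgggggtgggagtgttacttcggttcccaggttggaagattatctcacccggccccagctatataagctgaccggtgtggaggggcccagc
F3, chr1:94541760-94542009: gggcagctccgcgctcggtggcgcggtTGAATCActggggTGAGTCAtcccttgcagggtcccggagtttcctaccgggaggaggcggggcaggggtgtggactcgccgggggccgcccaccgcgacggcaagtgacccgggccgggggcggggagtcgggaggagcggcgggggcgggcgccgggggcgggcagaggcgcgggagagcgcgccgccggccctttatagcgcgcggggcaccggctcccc

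CCN2 held GGAATG 3 times, starting 169, 104 and 95 bases before the start. ANKRD1 held it 2 times together with 1 AP-1 match, and F3 held 2 AP-1 matches and no GGAATG. Of the 8 genes with a window in the table, 5 held GGAATG and 2 held TGANTCA; in AMOTL2, AJUBA and AXL the match lay in the second of 2 windows. Over all 35116 promoter windows of this length, GGAATG was present in 4175 (11.9%), at least 2 times in 330 (0.94%), and TGANTCA was present in 2308 (6.57%). These shares are of single windows, whereas a gene with 2 windows was counted if either held a match, so the units differ. The match is a description of the letters and was not set against binding data.

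The genes differed widely in level. In plvx neo, CCN1 was at 127 ± 5.34 TPM (SD, n = 3), F3 at 24.2 ± 1.93, AMOTL2 at 14.6 ± 0.903 and AJUBA at 12.9 ± 1.43. AXL (9.79 ± 0.860) and CRIM1 (8.90 ± 2.33) followed with overlapping libraries, then AMOTL1 at 6.33 ± 0.381, LATS2 at 4.42 ± 0.165 and CCN2 at 3.03 ± 0.376. AMOTL2 and AJUBA overlapped too, CRIM1 overlapped AMOTL1 as well, and the other neighbours in this order did not overlap. CCN1 alone made up 59.0 to 60.7% of the summed TPM of the 10 genes in plvx neo and 70.9 to 71.8% with STBD1 WT. With STBD1 W203C it made up 67.2 to 70.6%.

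**Figure D1:**
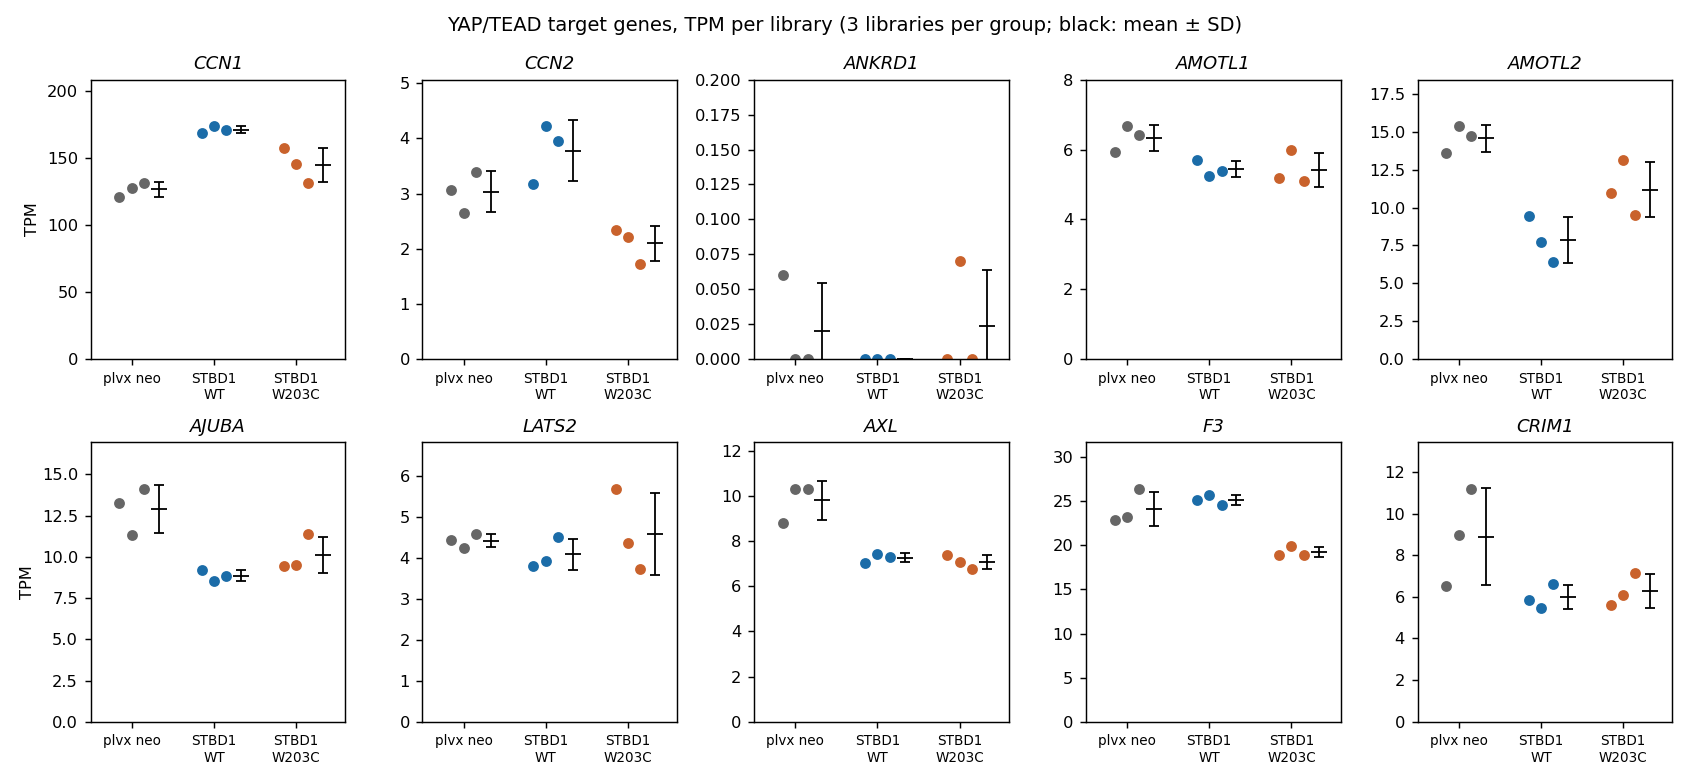
TPM (y axis, linear, from 0) of the 10 YAP/TEAD target genes in each library by group (x axis); points are libraries, black marks are the mean ± SD of 3. CCN1 was highest in STBD1 WT, AMOTL2 lowest in STBD1 WT, CCN2 and F3 lowest in STBD1 W203C, and ANKRD1 was at or near 0 throughout.

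ANKRD1, a nuclear ankyrin-repeat protein best known from muscle, was not detectable as an expressed gene at this depth. It had 2 expected counts in plvx neo replicate 1, 2 in STBD1 W203C replicate 2 and 0 in the other 7 libraries. A count of 0 allows up to 3 counts, between 0.129 and 0.178 per 1 M counts in the STBD1 WT libraries. These limits cover counting error only. ANKRD1 did not pass the filter on low counts, so 9 of the 10 genes were tested.

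STBD1 WT against plvx neo compares re-expression with the vector in knocked-down cells. CCN1 rose, 5 of the other genes fell, and 3 did not pass the test. The largest change was in AMOTL2, which was at 0.53 times its plvx neo level. In STBD1 WT against plvx neo 27.8% of the 15289 genes tested were called at an adjusted p below 0.05 (edgeR quasi-likelihood test on counts, Benjamini-Hochberg over all genes), 13.9% higher and 13.9% lower, beside 6 of the 9 target genes, 1 higher and 5 lower. Their median log2 fold change was -0.23, and that of all genes tested was 0.0061. No library of one group reached into the TPM range of the other for 5 of the 9, as for 31.3% of all genes tested.

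Of the secreted matricellular proteins, CCN1 was at 121, 128 and 131 TPM in plvx neo and at 169, 174 and 171 TPM in STBD1 WT. Every STBD1 WT library was above every plvx neo library, and the log2 fold change on counts was 0.33 (SE 0.04, edgeR adjusted p = 3.83e-06). The log2 ratio of the mean TPM was larger, 0.43. The mean length that RSEM assigned to CCN1 was 2031 bases in plvx neo and 1904 in STBD1 WT. CCN2 was at 3.07, 2.64 and 3.39 TPM in plvx neo and at 3.17, 4.22 and 3.95 TPM in STBD1 WT. Its groups overlapped, and its log2 fold change of 0.33 had an SE of 0.142 (95% interval 0.034 to 0.63, edgeR adjusted p = 0.0914). Without STBD1 WT replicate 1 it passed (adjusted p = 0.0352). The same size of change thus passed for CCN1, with 4122 to 6530 counts per library here, and missed the threshold for CCN2, with 107 to 197.

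Among the angiomotins, which hold YAP at junctions and in the cytoplasm, AMOTL2 was at 13.6, 15.4 and 14.7 TPM in plvx neo and at 9.44, 7.70 and 6.39 TPM in STBD1 WT. The groups stood well apart, with a log2 fold change of -0.91 (SE 0.0618, edgeR adjusted p = 1.49e-09), which ranked 69 from the lowest among the 15289 genes tested. AMOTL1 was at 5.92, 6.67 and 6.41 TPM in plvx neo and at 5.71, 5.25 and 5.38 TPM in STBD1 WT. Its groups did not overlap either, with a smaller log2 fold change of -0.27 (SE 0.0625, edgeR adjusted p = 0.00294). On log2(TPM + 1) AMOTL1 did not pass (-0.19, limma adjusted p = 0.285), whereas the edgeR fits without 1 library gave 0.0026 to 0.0221.

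AJUBA, a LIM-domain protein of cell junctions, was at 13.3, 11.3 and 14.1 TPM in plvx neo and at 9.20, 8.55 and 8.85 TPM in STBD1 WT. It fell, with a log2 fold change of -0.28 on counts (SE 0.06, edgeR adjusted p = 0.00149). On TPM the log2 ratio of the means was -0.54, and the length RSEM assigned to the gene, a mean over its transcripts, also differed, at a mean of 3529 bases in plvx neo and 4130 in STBD1 WT. The gene overlaps ENSG00000259132 on the same strand, whose mean TPM was 1.00 with the vector, 2.15 with STBD1 WT and 1.19 with STBD1 W203C. With the counts of that gene added, an alternative chosen after seeing the data, the log2 fold change was -0.25. LATS2, the kinase, was at 4.43, 4.25 and 4.58 TPM in plvx neo and at 3.81, 3.92 and 4.52 TPM in STBD1 WT. Its groups overlapped, and the log2 fold change of -0.18 (SE 0.0733) did not pass the test (edgeR adjusted p = 0.0814).

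The 3 remaining genes encode cell-surface proteins. AXL, a receptor tyrosine kinase for GAS6, was at 8.80, 10.3 and 10.3 TPM in plvx neo and at 7.03, 7.44 and 7.30 TPM in STBD1 WT, and it fell by 0.40 on the log2 scale (SE 0.0674, edgeR adjusted p = 0.000146). CRIM1, a transmembrane binder of bone morphogenetic proteins, was at 6.52, 8.99 and 11.2 TPM in plvx neo and at 5.85, 5.47 and 6.62 TPM in STBD1 WT. Its counts fell by 0.23 on the log2 scale (SE 0.0695, edgeR adjusted p = 0.018), while the TPM groups overlapped and the log2 ratio of their means was -0.57. The plvx neo libraries were spread out in assigned length as well, from 3543 to 5428 bases, and without plvx neo replicate 3 or STBD1 WT replicate 1 the CRIM1 call was lost (highest adjusted p = 0.107), as it was with limma on log2(TPM + 1) (adjusted p = 0.118). CRIM1 also overlaps FEZ2 on the opposite strand, and whether counting used strand was not stated. F3, tissue factor, which starts blood coagulation, was at 22.9, 23.2 and 26.4 TPM in plvx neo and at 25.1, 25.8 and 24.6 TPM in STBD1 WT, and did not pass the test (log2 fold change 0.013, 95% interval -0.11 to 0.13, edgeR adjusted p = 0.895).

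**Figure D2:**
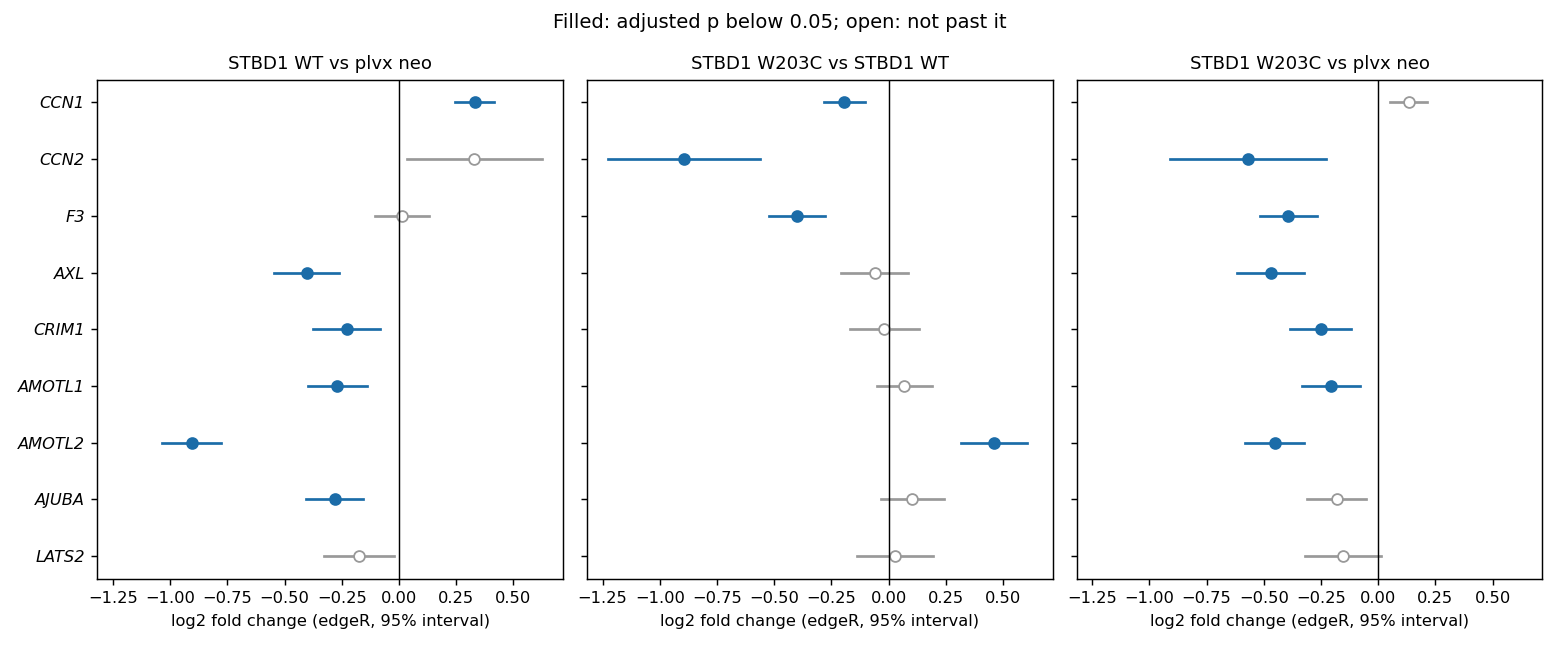
Log2 fold change (x axis) of the 9 tested YAP/TEAD target genes (rows) in each comparison, on counts, with 95% intervals from edgeR; filled blue points passed an adjusted p of 0.05, open grey ones did not. CCN2 and AMOTL2 lay on opposite sides of 0 between the 2 STBD1 forms, at -0.89 and 0.46.

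STBD1 W203C against STBD1 WT compares the 2 forms in the same background. CCN2, F3 and CCN1 were lower in STBD1 W203C, AMOTL2 was higher, and the other 5 tested genes did not pass. Over all 15052 genes tested, 27.9% were called, 14.5% higher and 13.4% lower, beside 4 of the 9 target genes, 1 higher and 3 lower. The share of target genes called was therefore not far from the background. Their median log2 fold change was -0.018, beside -0.0078 for all genes tested. TPM did not overlap between the groups for 5 of the 9 genes, beside 33.1% of all genes tested. This comparison shares its STBD1 WT libraries with the one above.

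CCN2 was at 2.34, 2.22 and 1.73 TPM in STBD1 W203C. All 3 libraries were below the lowest STBD1 WT library (3.17 TPM), and the log2 fold change was -0.89 (SE 0.16, edgeR adjusted p = 0.00025). It ranked 245 from the lowest among the 15052 genes tested, on 61 to 85 counts per STBD1 W203C library. F3 was at 18.9, 19.9 and 19.0 TPM in STBD1 W203C, below every STBD1 WT library, with a log2 fold change of -0.40 (SE 0.0592, edgeR adjusted p = 3.11e-05). CCN1 was at 157, 146 and 132 TPM in STBD1 W203C, also below every STBD1 WT library but with a smaller log2 fold change of -0.19 (SE 0.0436, edgeR adjusted p = 0.00206).

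AMOTL2 was at 11.0, 13.1 and 9.48 TPM in STBD1 W203C, just above the highest STBD1 WT library (9.44 TPM). The log2 fold change was 0.46 (SE 0.0692, edgeR adjusted p = 3.87e-05). On log2(TPM + 1) it was 0.47 and did not pass (limma adjusted p = 0.0921), whereas the edgeR fits without 1 library gave 1.32e-05 to 0.000584. The calls of CCN2, F3, CCN1 and AMOTL2 held when any 1 library was left out.

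The 5 other genes had intervals that covered 0. AJUBA was at 9.45, 9.49 and 11.4 TPM in STBD1 W203C, with a log2 difference of 0.10 (95% interval -0.034 to 0.24). AMOTL1 was at 5.20, 5.98 and 5.09 TPM, with a difference of 0.069 (95% interval -0.052 to 0.19). Neither difference passed the test, although the AJUBA libraries did not overlap on TPM (8.55 to 9.20 in STBD1 WT). On counts per 1 M the AJUBA groups overlapped and the AMOTL1 groups did not. AXL was at 7.38, 7.09 and 6.74 TPM, with a log2 difference of -0.061 (95% interval -0.21 to 0.086), and CRIM1 at 5.59, 6.10 and 7.15 TPM, with a log2 difference of -0.018 (95% interval -0.17 to 0.13). LATS2 was at 5.68, 4.36 and 3.72 TPM, with a log2 difference of 0.027 (95% interval -0.14 to 0.19). The intervals reach 0.24 at most in size, so changes of the size seen for F3 or CCN2 lay outside them.

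STBD1 W203C against plvx neo compares the altered form with the vector. All 6 target genes called were lower in STBD1 W203C: CCN2, AXL, AMOTL2, F3, CRIM1 and AMOTL1. Over the 15081 genes tested, 5.7% were called, 3.03% higher and 2.67% lower, beside 6 of the 9 target genes, none higher. Their median log2 fold change was -0.25, beside -0.0031 for all genes tested. TPM did not overlap for 5 of the 9 genes, beside 20.2% of all genes tested.

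AXL (log2 fold change -0.47, SE 0.0707, edgeR adjusted p = 0.000121), AMOTL2 (-0.45, SE 0.0623, 4.22e-05) and F3 (-0.39, SE 0.0607, 0.000164) kept their calls in all 6 fits that left out 1 library. CCN2 had the largest log2 fold change, -0.57 (SE 0.164, edgeR adjusted p = 0.0405), and passed in 1 of those 6 fits, that without plvx neo replicate 2, with adjusted p of 0.0284 to 0.183. CRIM1 (-0.25, SE 0.0642, edgeR adjusted p = 0.0191) passed in 2 of the 6, those without plvx neo replicate 1 or STBD1 W203C replicate 1. AMOTL1 (-0.20, SE 0.0611, edgeR adjusted p = 0.0493) passed in 1, that without plvx neo replicate 1. With DESeq2 the calls of CCN2 (adjusted p = 0.0786) and AMOTL1 (0.0865) were lost, and with RLE size factors in edgeR that of AMOTL1 (0.0525). Without plvx neo replicate 3 or without STBD1 W203C replicate 2, 3 target genes remained called in place of 6. On log2(TPM + 1) with limma, 0 of the 9 passed an adjusted p of 0.05, beside 131 of the 15081 genes tested. The unadjusted limma p was below 0.05 for 7 of the 9, and the share of all genes below it is not given here.

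CCN1 lay above plvx neo in every STBD1 W203C library (132 to 157 against 121 to 131 TPM), but narrowly, with a log2 fold change of 0.13 (SE 0.0401, edgeR adjusted p = 0.0521). DESeq2 gave an adjusted p of 0.0367 for it, and the edgeR fits without 1 library gave 0.0133 to 0.335. CCN1 was also called higher in edgeR with RLE size factors, with no filter on low counts and with a replicate block. AJUBA had a log2 fold change of -0.18 (95% interval -0.31 to -0.052, edgeR adjusted p = 0.0959) and LATS2 of -0.15 (95% interval -0.32 to 0.013, edgeR adjusted p = 0.31). Without STBD1 W203C replicate 3, CCN1 and AJUBA passed (0.0133 and 0.0401). Side by side, and with STBD1 WT given first, the log2 fold changes against the shared plvx neo libraries were -0.91 and -0.45 for AMOTL2, -0.40 and -0.47 for AXL, 0.013 and -0.39 for F3, and 0.33 and -0.57 for CCN2.

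The genes did not vary as one block. Over the 9 libraries, Pearson r of log2 CPM (counts per 1 M) was 0.93 between AXL and CRIM1, 0.85 between AMOTL2 and AJUBA and 0.82 between AMOTL1 and AMOTL2. CCN2 and F3 formed another pair (r = 0.85) with weak correlations to AMOTL2 (-0.28 and -0.022). The pair was not apart from all the others: F3 was at 0.55 with AXL and 0.41 with CRIM1, and CCN2 at 0.32 and 0.30. CCN1 ran against AJUBA (-0.94) and AMOTL2 (-0.90), and was at 0.51 with its relative CCN2. The 9 points share 3 groups and are not independent, so no test was made. Among the 15489 genes compared in this way, those most like CCN1 included MROH1 (0.97) and SCD (0.97), a fatty acid desaturase. Those most like CCN2 were MYRF (0.98), UCA1 (0.97) and KIAA0319L (0.97).

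**Figure D3:**
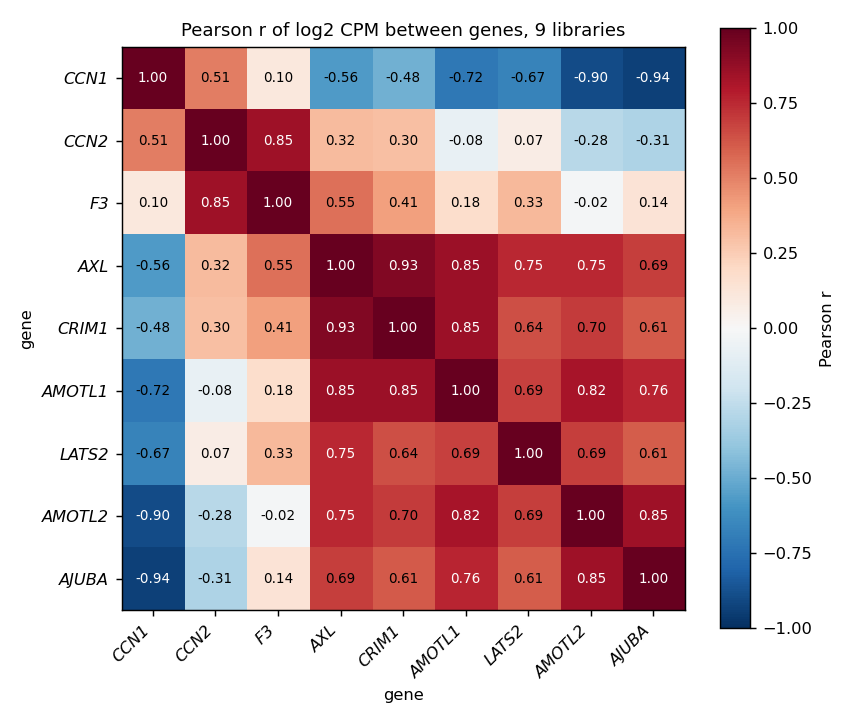
Pearson r of log2 CPM over the 9 libraries between each pair of the 9 tested YAP/TEAD target genes (both axes, genes), from blue at -1 to red at 1. AXL, CRIM1, AMOTL1, LATS2, AMOTL2 and AJUBA correlated positively with each other, CCN1 negatively with all 6, and CCN2 mainly with F3 (0.85).

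YAP1, the coactivator itself, was at 30.9, 36.2 and 30.8 TPM in plvx neo, at 34.6, 38.0 and 37.5 TPM in STBD1 WT, and at 39.6, 39.7 and 38.0 TPM in STBD1 W203C. On counts both STBD1 forms had more YAP1 than the vector, by 0.17 (SE 0.0444, edgeR adjusted p = 0.00667) and 0.19 (SE 0.0435, edgeR adjusted p = 0.00957) on the log2 scale. The 2 forms differed by 0.021 (95% interval -0.062 to 0.10). On TPM, YAP1 overlapped between plvx neo and STBD1 WT. With limma on log2(TPM + 1), 0 of the 7 YAP/TEAD factors and cofactors tested, YAP1 among them, passed in STBD1 W203C against plvx neo, beside 131 of 15081 genes. WWTR1 was at 19.9, 18.2 and 19.7 TPM in plvx neo, at 22.0, 21.3 and 23.2 TPM in STBD1 WT, and at 20.5, 19.6 and 19.0 TPM in STBD1 W203C. Only the STBD1 WT libraries stood above the rest: the log2 fold change was 0.25 against plvx neo (edgeR adjusted p = 0.000551) and -0.26 in STBD1 W203C against STBD1 WT (edgeR adjusted p = 0.000406).

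TEAD4 fell by 0.22 on the log2 scale in STBD1 WT against plvx neo (edgeR adjusted p = 0.026). TEAD1, TEAD2 and TEAD3 passed in no comparison, with log2 fold changes from -0.10 to 0.12. VGLL4, which competes with YAP for TEAD proteins, was at 15.2, 14.95 and 18.6 TPM in plvx neo, at 21.4, 22.0 and 24.6 TPM in STBD1 WT, and at 17.2, 19.9 and 20.4 TPM in STBD1 W203C. Its log2 fold changes were 0.44 in STBD1 WT against plvx neo, -0.20 between the 2 forms and 0.23 in STBD1 W203C against plvx neo (edgeR adjusted p = 4.56e-06, 0.0059 and 0.0211). Of the 10 factors and cofactors listed, 7 were tested, and higher and lower calls numbered 3 and 1, then 0 and 2, then 2 and 0 in the 3 comparisons in the order above, where 27.8, 27.9 and 5.7% of all genes tested were called.

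**Figure D4:**
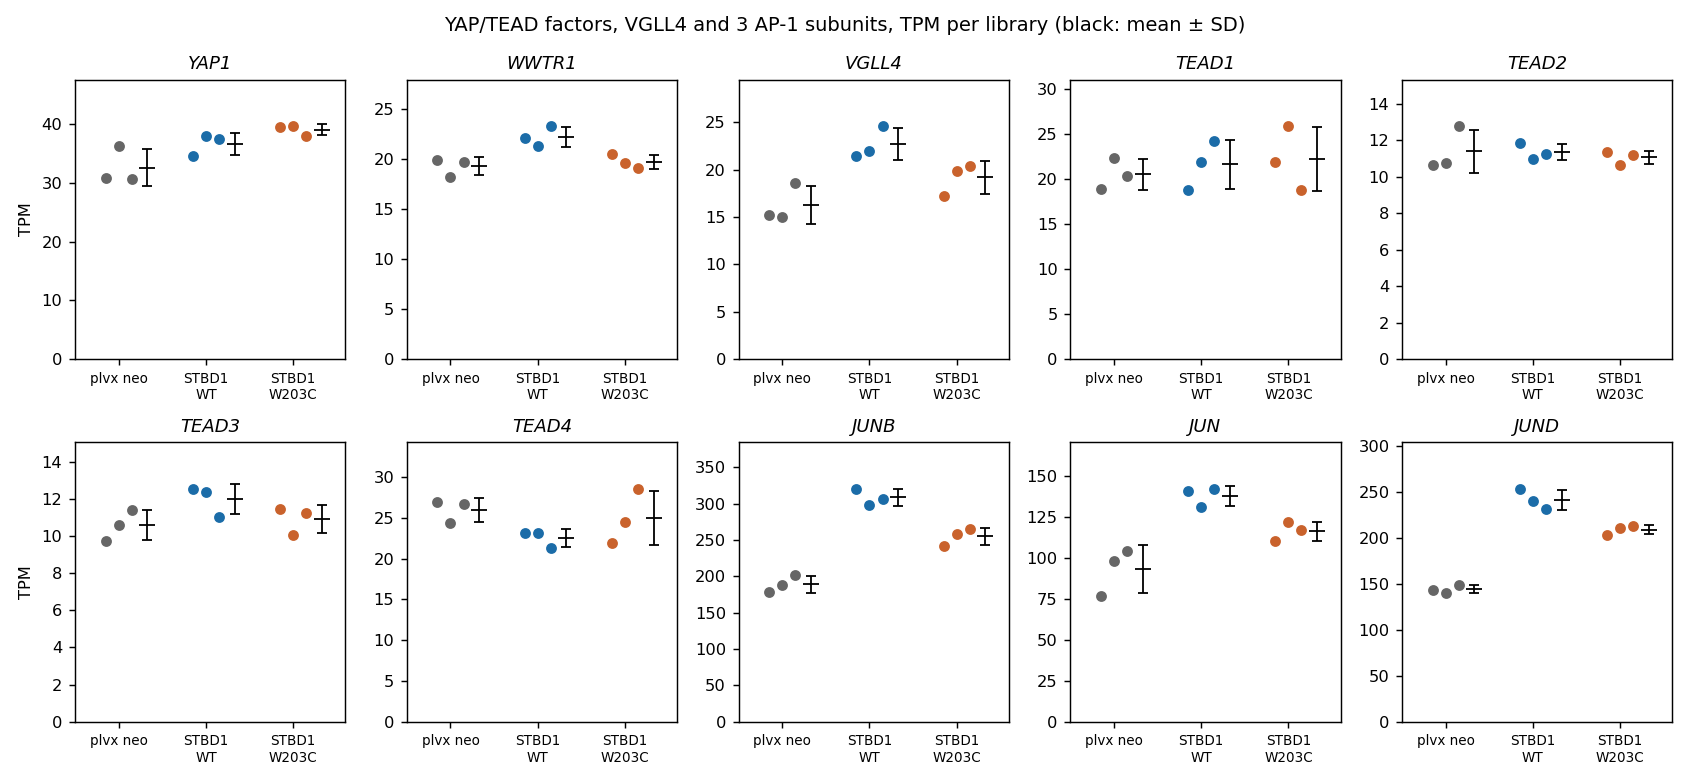
TPM (y axis, linear, from 0) of YAP1, WWTR1, VGLL4, TEAD1 to TEAD4 and 3 AP-1 subunits in each library by group (x axis); points are libraries, black marks are the mean ± SD of 3. VGLL4, JUNB, JUN and JUND were highest in STBD1 WT, and TEAD1 to TEAD3 overlapped between groups.

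All 20 members of the Hippo cascade and its regulators were tested, and 5, 1 and 1 were called in the 3 comparisons, beside 27.8, 27.9 and 5.7% of all genes tested; the first and the last are close to those shares. In STBD1 WT against plvx neo, 2 rose, SLMAP (0.15) and MAP4K4 (0.11), and 3 fell, FRMD6 (-0.31), PTPN14 (-0.25) and WWC2 (-0.21), all as log2 fold changes. SAV1, the scaffold of the upstream kinases, was the only one called between the 2 forms (-0.20), and MAP4K4, a kinase that acts on LATS, was the only one called in STBD1 W203C against plvx neo (0.18). The medians of the list were -0.019, 0.036 and -0.034. The list of 12 paralogs of the target genes includes CCN3, and LATS1 and AMOT, which are also counted among the Hippo regulators. Of the 12 paralogs, 8 were tested and 0 passed in any comparison by edgeR or by DESeq2. At an unadjusted p below 0.05 edgeR gave 0, 0 and 2 of them, and DESeq2 0, 0 and 1. The share of all genes below an unadjusted p of 0.05 is not given here.

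Of 14 other YAP/TEAD target genes, 10 were tested, with 3, 6 and 5 called in the 3 comparisons, beside 27.8, 27.9 and 5.7% of all genes tested, and calls in both directions in each. In STBD1 WT against plvx neo, GADD45A (0.63), a growth-arrest gene, and MYOF (0.19), a membrane-repair protein, rose. PTPN14 fell (-0.25), the same result as given above, since it is also counted among the Hippo regulators. Between the 2 forms NUAK2 (0.54) and FJX1 (0.31) were higher in STBD1 W203C, and 4 genes were lower, led by ARHGEF17 (-0.40), MYOF (-0.24) and NT5E (-0.22), the ectonucleotidase CD73, with GADD45A (-0.21) as the last. In STBD1 W203C against plvx neo GADD45A (0.41) and NUAK2 (0.39) rose, and NT5E (-0.30), ARHGEF17 (-0.24) and DOCK5 (-0.19) fell. All values are log2 fold changes with edgeR adjusted p at or below 0.05, and the medians of the list were 0.0080, -0.14 and -0.057.

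AP-1 subunits had the highest median of the lists in both comparisons with plvx neo. In STBD1 WT against plvx neo it was close to that of the TGF-beta targets (0.40 and 0.39). Between the 2 forms the TGF-beta targets had the lowest median of the lists, -0.49, beside -0.16 for AP-1 subunits. JUNB was at 178, 188 and 201 TPM in plvx neo, at 320, 298 and 307 TPM in STBD1 WT, and at 241, 258 and 265 TPM in STBD1 W203C, so that the 3 groups did not overlap. In STBD1 WT against plvx neo 6 of 9 subunits rose and 0 fell, led by JUNB (log2 fold change 0.70), JUND (0.63) and JUN (0.57), with a list median of 0.40. Calls in either direction numbered 6, 5 and 7 of 9 in the 3 comparisons, beside 27.8, 27.9 and 5.7% of all genes tested. In STBD1 W203C against plvx neo 7 rose, led by JUND (0.40), JUNB (0.39) and FOSL2 (0.34). Between the 2 forms JUNB (-0.31), JUN (-0.28), ATF3 (-0.25) and JUND (-0.22) were lower in STBD1 W203C, and FOSB (0.15) was higher. F3 had 2 AP-1 matches in its promoter window. Its log2 fold changes were 0.013 in STBD1 WT against plvx neo, -0.39 in STBD1 W203C against plvx neo and -0.40 between the 2 forms. A link between the matches and these changes was not tested.

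Targets of SRF and MRTF, which respond to actin, and of TGF-beta share many stimuli with YAP/TEAD targets. Beside the 27.8, 27.9 and 5.7% of all genes tested that were called, 8, 5 and 6 of the 17 SRF/MRTF targets tested and 5, 3 and 1 of the 7 TGF-beta targets tested were called, and 5 of 17 between the 2 forms is close to the share over all genes. Of the 17 SRF/MRTF targets tested, 6 rose in STBD1 WT against plvx neo, led by ACTA2 (log2 fold change 0.81), TAGLN2 (0.19) and ZYX (0.18), and MYL9 (-0.18) and FLNA (-0.11) fell. Between the 2 forms SRF itself was higher in STBD1 W203C (0.11) and 4 genes were lower, led by ACTA2 (-0.58), ACTG1 (-0.23), VCL (-0.23) and then FHL2 (-0.13). In STBD1 W203C against plvx neo SRF (0.22) and TAGLN2 (0.14) rose and 4 genes fell, led by MYL9 (-0.34), VCL (-0.14), FLNA (-0.13) and then ACTG1 (-0.11). Of the 7 TGF-beta targets tested, 5 rose in STBD1 WT against plvx neo, led by LTBP2 (0.55), COL1A1 (0.48) and SMAD7 (0.42), with SKIL (0.32) among the others. LTBP2 was low, at a mean of 0.68 TPM in plvx neo and 0.92 in STBD1 WT. The TPM groups of COL1A1 and SMAD7 overlapped there, with log2 ratios of the means of 0.30 and 0.20. Between the 2 forms LTBP2 (-0.77) and COL1A1 (-0.49) were among the genes lower in STBD1 W203C, and SMAD7 (0.50) alone rose in STBD1 W203C against plvx neo.

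**Figure D5:**
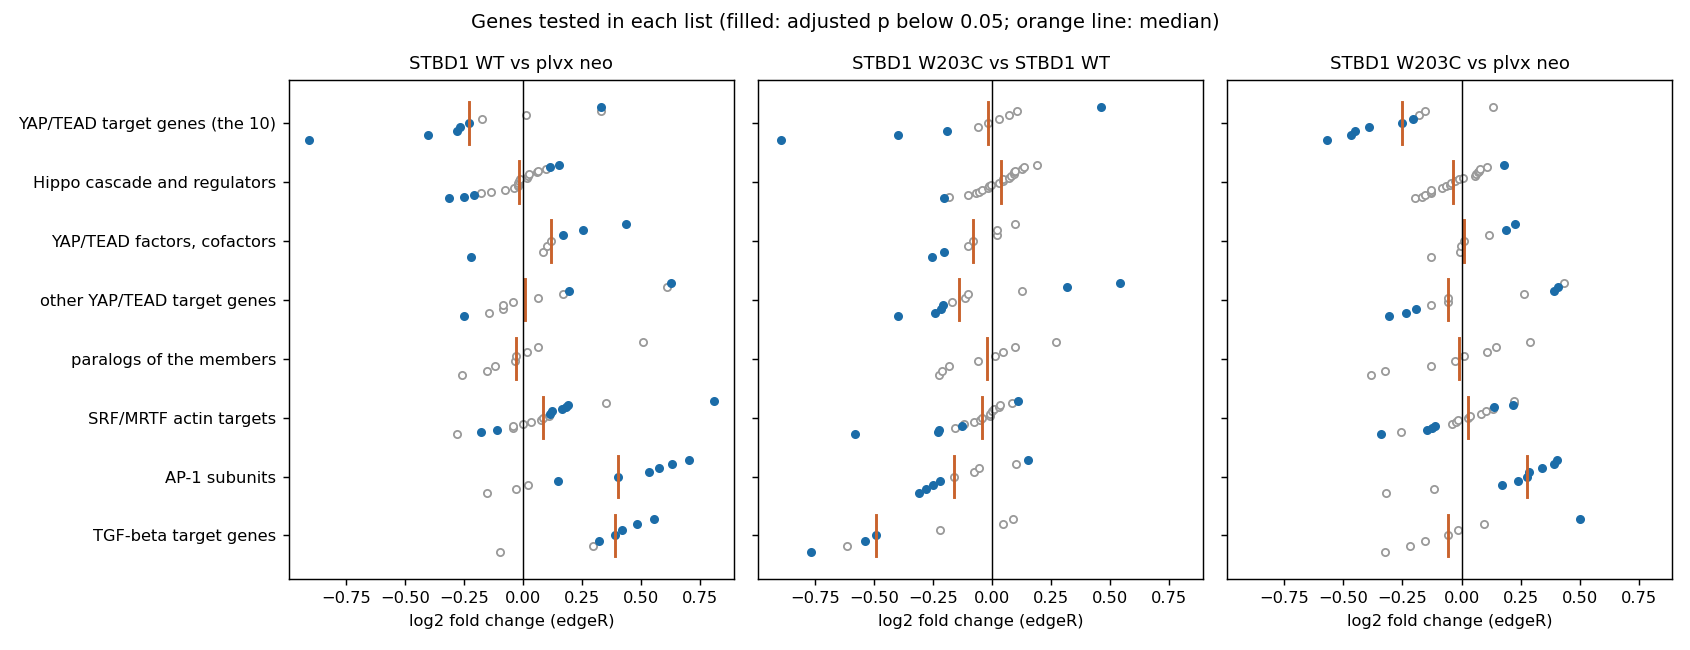
Log2 fold change on counts (x axis) of each tested gene (points) in the 10 YAP/TEAD target genes and 7 related lists (rows), in the 3 comparisons; filled blue points passed an edgeR adjusted p of 0.05, open ones did not, and orange lines are list medians. The median of the YAP/TEAD target genes lay at -0.23, -0.018 and -0.25, and that of the AP-1 subunits at 0.40, -0.16 and 0.28.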

How the data were processed

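RNA of HCT116 cells was sequenced as read pairs. Per the labels, the authors aligned reads to hg38 with STAR 2.7.1a and estimated abundances with RSEM 1.3.1; the annotation named in the methods is Ensembl release 93. The values deposited for each library are the expected count of each gene, in which RSEM divides ambiguous reads between transcripts, and its TPM, scaled by the authors for effective length and total. Strand use was not stated. Groups and replicate numbers came from the sample titles.

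The 10 genes and all lists were chosen with earlier results of these data known. Named were the 10 genes, YAP1, WWTR1, TEAD1 to TEAD4, up to 3 called genes per direction with the largest log2 fold change in each other list, the 3 genes most correlated with CCN1 and with CCN2, and STBD1 with FAM47E-STBD1. VGLL4, JUNB, JUN and JUND were given per library, and JUND, GADD45A, FHL2, ACTG1 and SKIL were added beside counts of 5 or fewer, after their values were seen. Some items that the rule names are not reported here.

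Expected counts were rounded, filtered with filterByExpr, normalised by TMM and tested two-sided with the edgeR 4.0.16 quasi-likelihood test (R 4.3.3) on the 6 libraries of each comparison, with Benjamini-Hochberg adjustment over all genes tested. The SE is the absolute log2 fold change divided by the square root of F. The methods of the study name the first 2 comparisons, and the third was added here. The 3 comparisons share libraries. Depth was 16.9 to 23.3 M counts, and the biological coefficient of variation was 4.05 to 4.21%. Replicates differed by more than sampling noise (chi-square 2.12 to 3.87 per gene, about 1 for noise alone). Correlations used log2 CPM with a prior count of 2. The steps were tested on simulated data. Alternatives were DESeq2 1.42.0, RLE size factors, no filter, all 9 libraries in one fit, a replicate block, limma 3.58.1 on log2(TPM + 1), and leaving out each library. Promoters were RefSeq windows. CCN1 and CRIM1 had no entry.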

Additional observations from a re-analysis of the deposited data

How the results depend on the processing

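Calls of the single target genes under other settings kept their direction and side of the threshold in 280 of 324 cases, were lost in 28, gained in 7 and changed sign in 9, all 9 for genes without a call. On log2(TPM + 1), with limma, AMOTL1 (-0.0073) and CRIM1 (0.058) changed sign between the 2 forms and LATS2 (0.029) in STBD1 W203C against plvx neo. With 1 library left out, F3 changed sign in STBD1 WT against plvx neo (range -0.0059 to 0.038, -0.0025 among them), and LATS2 (-0.035 to 0.068, -0.0012 among them) and CRIM1 (-0.081 to 0.033, 0.0068 among them) between the 2 forms.

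In the order STBD1 WT against plvx neo, STBD1 W203C against STBD1 WT, STBD1 W203C against plvx neo, calls over all genes were 4254, 4202 and 859. They were 1751, 1828 and 131 with limma on log2(TPM + 1), where 68.8 and 74.0% of the calls in the last 2 were higher in place of 51.8 and 53.2%, and the target genes called were 4, 3 and 0 in place of 6, 4 and 6. Why fewer passed on TPM was not tested. Leaving out 1 library gave 3317 to 3794, 3307 to 3618 and 459 to 818 genes, and 5 to 6, 4 and 3 to 5 target genes; all genes in the last comparison numbered 459 without plvx neo replicate 3, and 501 and 543 without STBD1 W203C replicate 1 and 2. On CPM in place of TPM, groups did not overlap for 7, 5 and 8 target genes in place of 5 each. The share over all genes was computed on TPM only, so the CPM counts have no background beside them.

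The replicate numbers did not pair the libraries: deviations from group means correlated at 0.014 on average between libraries of the same number (-0.012 to 0.068, n = 9) and at -0.0069 between others (n = 18). A replicate block gave 4400, 3662 and 1003 genes and 6, 4 and 7 target genes, CCN1 joining (edgeR adjusted p = 0.0409). It gave 3 in place of 5 SRF/MRTF targets between the 2 forms. DESeq2 and no filter also gave 3 there, where they called 3343 and 4141 of all genes.

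List counts under alternatives were added after seeing the data. Over all genes tested in the 3 comparisons, limma on TPM called 1751 of 15289, 1828 of 15052 and 131 of 15081. DESeq2 called 710 of 15081 in the last. Leaving out 1 library gave 3317 to 3794, 3307 to 3618 and 459 to 818 genes. With limma on TPM, in the same order, Hippo regulators numbered 1, 0 and 0 and factors and cofactors 1, 0 and 0. Other targets numbered 3 between the 2 forms and 1 in STBD1 W203C against plvx neo (DESeq2: 3), SRF/MRTF targets 2 and 1, and TGF-beta targets 1, 0 and 0. AP-1 subunits numbered 3 in STBD1 W203C against plvx neo. Leaving out 1 library gave 2 to 5, 0 to 2 and 0 to 2 Hippo regulators, 2 to 5, 1 to 2 and 1 to 2 factors and cofactors, and 3 to 4, 5 to 6 and 2 to 4 other targets. It gave 4 to 7, 2 to 4 and 2 to 4 SRF/MRTF targets, 6, 5 to 6 and 6 to 7 AP-1 subunits, and 3 to 5, 3 to 4 and 0 to 1 TGF-beta targets. The low ends in STBD1 WT against plvx neo came without plvx neo replicate 3 (factors, SRF/MRTF, TGF-beta), plvx neo replicate 2 (Hippo) or STBD1 WT replicate 2 (Hippo, TGF-beta). Between the 2 forms they came without STBD1 W203C replicate 1 (Hippo, factors) or STBD1 WT replicate 1 (SRF/MRTF), and in STBD1 W203C against plvx neo without any of several libraries, plvx neo replicate 3 in each list but AP-1. Depth limits CCN2 most among the tested genes, at 61 to 197 counts per library.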
